A study of Mus musculus with 4 samples.

Results

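The insulin-like growth factor (IGF) binding proteins, their ligand and their receptor were followed through the mammary glands of mice that lost the Hippo kinases LATS1 and LATS2 in luminal cells. The 8 genes, *Igfbp2*, *Igfbp3*, *Igfbp4*, *Igfbp5*, *Igfbp6*, *Igfbp7*, *Igf1* and *Igf1r*, are 8 of the 28693 genes listed in the count tables. They were selected on measured values, because *Igfbp2* was near 0 in WT and high in LATS1/2 KO and *Igfbp5* was lower in basal cells of LATS1/2 KO. For that reason the LATS1/2 KO and WT levels of these genes in epithelial cells are given as a description with no test. Tests were kept for EYFP-positive against EYFP-negative cells, for stromal cells, for the lineages of WT glands, and for other IGF pathway genes.

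Single-cell RNA sequencing libraries (10x Genomics, 3′ v3 chemistry) had been made from live cells of the gland, 1 library per mouse, with 2 WT and 2 LATS1/2 KO mice. Both groups were Lats1f/f;Lats2f/f and carried R26-lsl-EYFP, a Cre-dependent fluorescent reporter, heterozygous in every mouse except LATS1/2 KO replicate 2, where it was homozygous. The LATS1/2 KO mice also carried Krt8-CreERT2, which places a tamoxifen-inducible Cre under the promoter of the luminal keratin gene *Krt8*, while WT mice had no Cre and kept both floxed genes. All mice received 2 mg tamoxifen on each of 5 days and were sampled 7 days after the last dose. Deletion by this Cre is therefore directed at cells that use the *Krt8* promoter.

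IGF binding proteins are secreted proteins that bind IGF-I and IGF-II, carry them in blood and tissue, and set how much ligand reaches the IGF-I receptor, a receptor tyrosine kinase that signals through insulin receptor substrates, PI3-kinase and AKT. Igfbp2 to Igfbp6 bind IGFs with high affinity, whereas Igfbp7 binds them weakly and is best known as a vessel and matrix-associated protein. In the mammary gland, Igfbp5 is known for its rise during involution, and Igf1 is made mainly by stromal cells. The LATS kinases restrain the coactivators YAP and TAZ, which act through TEAD transcription factors.

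*Igfbp2* and *Igfbp5*, which differed in opposite directions between LATS1/2 KO and WT luminal cells, are neighbours. In the GRCm38 annotation *Igfbp2* lies on the plus strand of chromosome 1 from 72824503 to 72852474, and *Igfbp5* lies on the minus strand from 72857932 to 72874884, so the genes point at each other with 5457 bases and no annotated gene between them. The promoters of this pair are given here from RefSeq (GRCm38.p6), each running 5′ to 3′ on the strand of its gene from 250 bases before to 50 bases after an annotated start. The first *Igfbp2* window is chr1:72824230-72824529, the second, at a downstream start, is chr1:72825137-72825436, and the *Igfbp5* window is chr1:72874816-72875115. Capitals mark matches on either strand to the TEAD motif GGAATG, which reads CATTCC on the other strand, or to the AP-1 motif TGACTCA, which reads TGAGTCA on the other strand.
Igfbp2, first start: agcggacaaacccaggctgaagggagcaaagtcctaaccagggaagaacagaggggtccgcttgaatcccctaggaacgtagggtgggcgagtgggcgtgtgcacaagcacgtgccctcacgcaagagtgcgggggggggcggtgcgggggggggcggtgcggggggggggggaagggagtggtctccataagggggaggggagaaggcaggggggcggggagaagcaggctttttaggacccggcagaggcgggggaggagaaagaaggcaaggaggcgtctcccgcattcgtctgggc
Igfbp2, second start: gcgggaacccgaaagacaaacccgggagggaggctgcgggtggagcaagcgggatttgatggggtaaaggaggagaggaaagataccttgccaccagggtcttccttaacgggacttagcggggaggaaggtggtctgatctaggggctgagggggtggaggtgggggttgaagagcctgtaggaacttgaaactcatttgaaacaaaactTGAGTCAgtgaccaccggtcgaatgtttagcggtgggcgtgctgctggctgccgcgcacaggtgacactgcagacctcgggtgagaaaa
Igfbp5: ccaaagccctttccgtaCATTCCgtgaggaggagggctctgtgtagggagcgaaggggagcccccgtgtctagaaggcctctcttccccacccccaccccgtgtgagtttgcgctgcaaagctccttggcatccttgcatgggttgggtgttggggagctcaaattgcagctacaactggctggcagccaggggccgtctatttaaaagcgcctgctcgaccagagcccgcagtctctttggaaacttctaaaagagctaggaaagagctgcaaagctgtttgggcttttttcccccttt

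The first *Igfbp2* window held neither motif, the second held TGAGTCA starting 39 bases before the start, and the *Igfbp5* window held CATTCC starting 233 bases before the start. Among the 9 windows of the 8 genes, 1 held the TEAD motif and 1 the AP-1 motif. Over all 32851 promoters of this length, 14.7% held GGAATG or CATTCC and 5.20% held TGACTCA or TGAGTCA. The first *Igfbp2* window had a GC content of 67.0% and 18 CpG dinucleotides, against medians of 52.7% and 7 over all promoters.

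After filtering, 18200 of 20324 barcodes were kept, with 3515 to 5272 cells and 38792520 to 46810771 unique molecular identifiers (UMIs) per library. Cells were assigned to lineages by scores of marker lists that hold none of the 8 genes and no EYFP. Luminal cells were split into ER-, ER+ and a remaining class that passed neither score limit. This class is named here by that rule, as luminal cells under both limits. It held 47 and 13 cells in WT and 1317 and 1133 in LATS1/2 KO, where it kept *Krt8* (7795 and 7603 CPM, the usual scaling of counts to the UMI total of the cells summed) and carried *Krt14* (3007 and 2312 CPM) and EYFP (155 and 246 CPM). Basal cells of LATS1/2 KO kept *Trp63* (74.6 and 64.1 CPM) but had 27.3 and 37.7 CPM of *Oxtr*, against 289 and 281 CPM in WT. In *Lats1*, whose 3′ reads need not lie in the deleted part, luminal ER- cells had 25.6 and 25.4 CPM in WT and 17.4 and 20.6 CPM in LATS1/2 KO. A total of 43 of 18157 distinct barcodes occurred in more than 1 library. The RNA that cells share through the droplet fluid, called free RNA here, was estimated at 6.92% to 10.7% of UMIs in luminal cells of LATS1/2 KO and at 4.30% to 12.7% in the other lineages of those mice. The free RNA level of a gene is this share of its level over all cells of the library.

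*Igfbp2*, a binding protein with an integrin-binding motif, was nearly absent from WT luminal cells and abundant in LATS1/2 KO. WT luminal cells held 11 and 8 *Igfbp2* UMIs in all, or 0.245 and 0.194 CPM, and LATS1/2 KO luminal cells held 54276 and 64905 UMIs, or 1655 and 1938 CPM. The WT mean was 0.219 ± 0.036 CPM and the LATS1/2 KO mean 1797 ± 200.5 CPM (SD, n = 2 mice each). The groups did not overlap. Within LATS1/2 KO the level depended strongly on the luminal class. Luminal cells under both limits had 3278 and 3855 CPM, luminal ER- cells 414 and 449 CPM, and luminal ER+ cells 193 and 121 CPM. The first of these held 87.7% of all luminal *Igfbp2* UMIs in each mouse, from 40.2% and 38.6% of the luminal cells. In WT the 60 cells of that class held 0 UMIs, so the LATS1/2 KO mean was at least 196-fold higher, with the WT group set to 3 counts. These WT cells were few and shallow, with a median of 2718 and 1500 UMIs against 9003 and 10960 in LATS1/2 KO. Their free RNA was estimated at 28.0% and 76.8%, so they are a poor match for the LATS1/2 KO cells.

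Read against free RNA, the *Igfbp2* signal of LATS1/2 KO was clear in some lineages only. It stood at 23.0 and 37.5 times the free RNA level in luminal cells under both limits and at 3.06 and 3.62 times in luminal ER- cells. In luminal ER+ cells it stood at 1.26 and 0.82 times that level. Basal cells had 3.21 and 4.14 CPM in WT and 181 and 109 CPM in LATS1/2 KO, which was 1.03 and 0.78 times the free RNA level. Macrophages, with 0 *Igfbp2* UMIs in the 9 WT cells, had 133 and 115 CPM in LATS1/2 KO, 0.88 and 1.09 times that level, and endothelial cells had 89.2 and 85.4 CPM, 0.78 and 1.04 times. In basal cells, endothelial cells and macrophages of LATS1/2 KO the *Igfbp2* level thus lay near the free RNA estimate. Part of the basal estimate can come from the basal cells' own keratin reads, since *Krt8* is among the genes used for it.

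**Figure D1:**
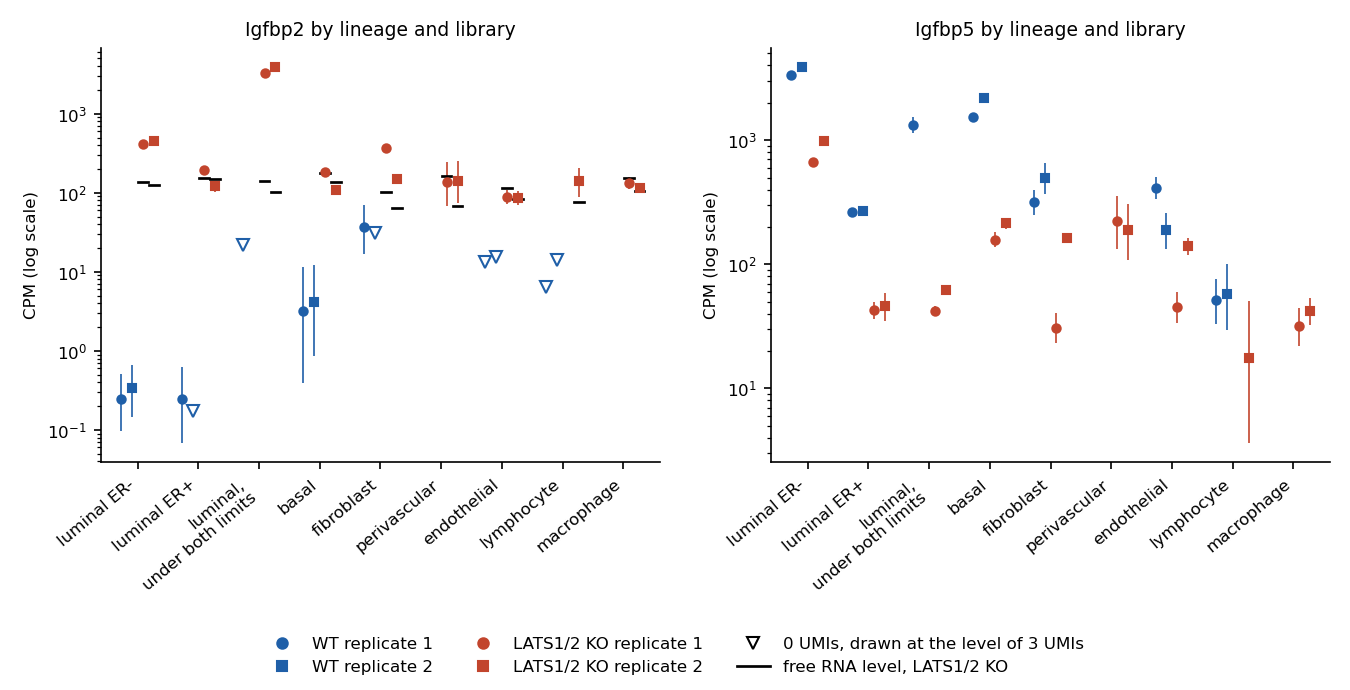
CPM (log scale) of Igfbp2 and Igfbp5 in each lineage of each library with at least 20 cells, with 95% counting intervals. Igfbp2 of LATS1/2 KO (red) stands far above the free RNA level (black bars) in luminal cells under both limits, at 3278 and 3855 CPM, and at that level in basal and endothelial cells and macrophages, while Igfbp5 of LATS1/2 KO lies under WT (blue) in every epithelial lineage.

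The share of cells with an *Igfbp2* UMI was compared after thinning each cell to 2000 UMIs. In luminal cells under both limits 61.1% and 68.5% of LATS1/2 KO cells had at least 1 UMI, in luminal ER- cells 23.5% and 21.2%, and in luminal ER+ cells 10.9% and 12.5%. Macrophages of the same mice, which served as the background, reached 23.7% and 24.3%. The shares in luminal ER- and ER+ cells were no higher than in macrophages, although the summed level of ER- cells was. Macrophages were shallower before thinning, and luminal ER+ cells, also near the free RNA level, had lower shares than macrophages. Which of the 2 is the better background for luminal ER- cells was not tested. Before thinning the shares were 50% and 48.3% in luminal ER- cells (median 7489 and 7974.5 UMIs per cell) and 41.2% and 38.9% in macrophages (median 4186 and 3714 UMIs). In WT luminal ER- cells 7 of 3085 and 7 of 2229 cells had a UMI.

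*Igfbp2* was concentrated in few cells. Over the luminal cells of LATS1/2 KO the median cell had 1 UMI in each mouse, the cell at the 90th percentile had 39 and 62, and the highest cells had 1003 and 908. The top 10% of cells held 82.8% and 76.0% of the UMIs. Cells with at least 1 UMI of 8 cell cycle genes and cells with none had, as a description, 1680 and 1954 CPM against 1608 and 1917 CPM. The genes whose levels followed *Igfbp2* most closely over 30 sums of lineage and library were *Rbm3* (Pearson r 0.89), *Slc25a48* (0.88), *Ptgs2* (0.85), *Sox11* (0.85) and *Ankrd1* (0.84). These sums share libraries and free RNA, and the correlations are a description across sums.

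EYFP marks cells in which Cre has acted, and it separated luminal cells with high *Igfbp2* from those with less. At least 1 EYFP UMI was found in 1568 of 6214 luminal cells of LATS1/2 KO, or 25.2%, against 27 of 7586 in WT, or 0.356%. In stromal and immune cells of LATS1/2 KO the share was 2.29% and in basal cells 3.52%. A cell with 0 EYFP UMIs may still have recombined. EYFP-positive cells were also deeper, with a median of 13516 and 15120 UMIs against 7063 and 7117.

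Between EYFP-positive and EYFP-negative luminal cells of the same mice, 5513 of 13192 genes passed an adjusted p of 0.05 in edgeR's quasi-likelihood test with the mouse as a block, or 41.8%. Of the 8 genes 6 passed, 2 of them higher and 4 lower in EYFP-positive cells. *Igfbp2* had 3567 and 3555 CPM in EYFP-positive cells and 717 and 740 CPM in EYFP-negative cells. It was higher in both mice, with a log2 fold change of 2.28 (SE 0.05, adjusted p = 5.3e-15 in edgeR). The classes differed in makeup, since luminal cells under both limits were 489 of 719 and 573 of 849 EYFP-positive cells and 828 of 2561 and 560 of 2085 EYFP-negative cells. *Krt14* moved with *Igfbp2*, from 1067 and 725 CPM to 2866 and 2016 CPM. *Igfbp7* rose from 643 and 555 CPM to 1180 and 1120 CPM, a log2 fold change of 0.94 (SE 0.05, adjusted p = 1.1e-09 in edgeR).

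*Igfbp5* went the other way, from 408 and 783 CPM in EYFP-negative to 125 and 218 CPM in EYFP-positive cells. Its log2 fold change was -1.78 (SE 0.06, adjusted p = 5.8e-12 in edgeR). Without the mouse as a block only *Igfbp2*, *Igfbp5* and *Igfbp7* passed, and 1018 genes in all. The same 3 genes kept their direction and their call at a threshold of 2 EYFP UMIs, in luminal ER- cells alone, in luminal cells under both limits alone, in cells without cell cycle UMIs and after thinning to 2000 UMIs. In luminal ER- cells alone the log2 fold changes were 2.21 for *Igfbp2*, 0.70 for *Igfbp7* and -0.90 for *Igfbp5*. In luminal cells under both limits alone, which hold most of the *Igfbp2* UMIs, they were smaller for *Igfbp2* (1.27) and *Igfbp7* (0.44), and -1.38 for *Igfbp5*.

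The remaining calls were small and near the free RNA level. *Igfbp3* fell from 20.6 and 17.8 CPM to 8.43 and 14.7 CPM (log2 fold change -0.73, adjusted p = 0.0026 in edgeR), but in luminal ER- cells alone its log2 fold change was 0.23. *Igfbp4* and *Igfbp6* passed at -0.38 and -0.70 (adjusted p = 0.033 and 0.044 in edgeR) and did not pass in DESeq2. *Igf1*, at 3.04 to 5.20 CPM, did not pass, with a log2 fold change of 0.23. *Igf1r*, the receptor, had 79.4 and 110 CPM in EYFP-negative and 85.3 and 98.3 CPM in EYFP-positive cells and did not pass (log2 fold change -0.04, SE 0.08, adjusted p = 0.70 in edgeR).

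**Figure D2:**
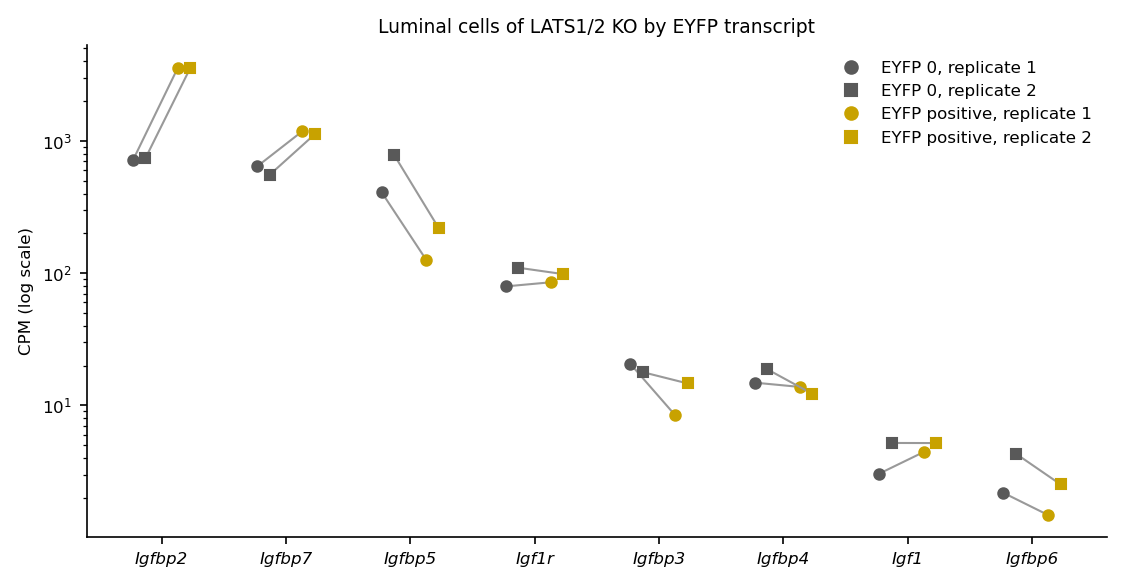
CPM (log scale) of the 8 genes summed over luminal cells of each LATS1/2 KO mouse with 0 EYFP UMIs (grey) and with at least 1 (yellow), lines joining cells of 1 mouse. Igfbp2 goes from 717 and 740 to 3567 and 3555 CPM, Igfbp7 also goes up, Igfbp5 goes down in both mice, and Igf1r differs little.

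*Igfbp5* was abundant in WT luminal cells, and its level was lower in every epithelial lineage of LATS1/2 KO. In luminal ER- cells it had 3366 and 3855 CPM in WT and 671 and 987 CPM in LATS1/2 KO, a ratio of means of 4.36. In luminal ER+ cells it had 264 and 268 CPM in WT and 42.6 and 45.9 CPM in LATS1/2 KO, 6.01-fold lower, where the values were 4.19 and 1.15 times the free RNA level in WT and 1.41 and 1.03 times in LATS1/2 KO, so that only WT replicate 1 stood well above it. Basal cells had 1544 and 2181 CPM in WT and 158 and 213 CPM in LATS1/2 KO, 10.0-fold lower between means of 1863 ± 451 and 186 ± 39.0 CPM (SD, n = 2). The groups did not overlap in any of these lineages. The basal values of LATS1/2 KO were 4.58 and 5.10 times the free RNA level. Cells of the same lineage fell into different clusters in the groups. Of the clusters named basal, 1 held 206 and 164 WT cells and 6 and 0 LATS1/2 KO cells. Another held 0 WT cells and 388 and 533 LATS1/2 KO cells, of which only 47.8% were also gated as basal. The last held both groups, with 18 and 8 WT cells and 68 and 80 LATS1/2 KO cells, 46.6% of them gated as basal. The luminal ER- and ER+ clusters were each mostly of WT or mostly of LATS1/2 KO cells. *Epcam*, an epithelial adhesion gene, moved with the basal values, from 365 and 454 CPM in WT to 1245 and 1100 CPM in LATS1/2 KO, and its part in the result was not tested.

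The share of cells with *Igfbp5* was lower as well. After thinning to 2000 UMIs, 93.1% and 94.95% of WT luminal ER- cells and 49.97% and 59.4% of those in LATS1/2 KO had a UMI. In basal cells the shares were 73.9% and 75.2% in WT and 20.8% and 31.3% in LATS1/2 KO. In lymphocytes of the same libraries, where the gene stood under the free RNA level, the shares were 7.14% and 8.47% in WT and 0 and 2.22% in LATS1/2 KO. Luminal cells under both limits had 42.3 and 62.6 CPM in LATS1/2 KO, 1.51 and 2.02 times the free RNA level.

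Within LATS1/2 KO, *Igfbp5* was set beside *Igfbp2* in the same cells, as a description. After thinning, 18.2% and 21.3% of luminal cells with an *Igfbp2* UMI had an *Igfbp5* UMI, against 32.8% and 48.8% of those without. Inside luminal ER- cells the gap was smaller, 46.6% and 53.4% against 50.99% and 61.0%, and inside luminal cells under both limits it was 5.49% and 5.88% against 10.6% and 15.3%. The 5 genes whose levels followed *Igfbp5* most closely were *Pdlim3* (Pearson r 0.90), *Sertad2* (0.83), *Auts2* (0.81), *Atp6v1b1* (0.81) and *Arl13b* (0.79), over the same 30 sums and as a description.

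*Igfbp7* was higher in every luminal class of LATS1/2 KO. Luminal ER- cells had 59.3 and 53.9 CPM in WT and 590 and 561 CPM in LATS1/2 KO, 10.2-fold higher, and 5.69 and 6.05 times the free RNA level. Luminal ER+ cells went from 7.05 and 11.4 CPM to 188 and 159 CPM, which was 1.60 and 1.44 times that level. Luminal cells under both limits had 1223 and 1129 CPM in LATS1/2 KO, and after thinning 77.8% and 72.2% of them had a UMI. Macrophages, the background, had 15.5% and 7.98%. Basal cells had 673 and 416 CPM in WT and 1212 and 1080 CPM in LATS1/2 KO, a ratio of 2.10 with no overlap.

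Of the other binding proteins, *Igfbp3*, the main carrier of IGFs in blood, was a basal and stromal transcript. Basal cells had 162 and 132 CPM in WT and 412 and 315 CPM in LATS1/2 KO, 2.47-fold higher, at 45.2 and 23.2 times the free RNA level. The luminal level of LATS1/2 KO, 16.6 and 16.5 CPM, was 2.27 and 1.46 times the free RNA level, against 0.445 and 0.194 CPM in WT. *Igfbp4*, which is cleaved by pregnancy-associated plasma protein A, had overlapping levels in basal cells, with 94.6 and 97.9 CPM in WT and 83.5 and 168 CPM in LATS1/2 KO. In luminal cells *Igfbp4* had 1.29 and 0.799 CPM in WT and 14.5 and 16.0 CPM in LATS1/2 KO, the latter 1.79 and 1.12 times the free RNA level. *Igfbp6*, which prefers IGF-II, had 30.5 and 19.3 CPM in WT basal cells and 9.63 and 13.5 CPM in LATS1/2 KO. Its luminal level in LATS1/2 KO, 1.95 and 3.55 CPM, was 1.05 and 1.16 times the free RNA level.

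The ligand *Igf1* was close to 0 in epithelial cells, with 1.45 and 0.412 CPM in WT luminal cells and 3.51 and 5.20 CPM in LATS1/2 KO, the latter 2.05 and 2.76 times the free RNA level. In basal cells 1 UMI was found in WT and 11 in LATS1/2 KO, a ratio of 4.78 with a 95% counting interval of 0.70 to 206. The receptor *Igf1r* stood well above the free RNA level in luminal ER- and basal cells and was low in luminal ER+ cells. In luminal ER- cells it had 82.2 and 60.3 CPM in WT and 90.4 and 117 CPM in LATS1/2 KO, a ratio of 1.46. In luminal ER+ cells it had 7.49 and 6.20 CPM in WT, 4.64 and 1.59 times the free RNA level. LATS1/2 KO had 14.04 and 15.3 CPM there, 1.66 and 1.53 times that level. Basal cells overlapped, with 112 and 74.5 CPM in WT and 69.8 and 90.5 CPM in LATS1/2 KO.

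**Figure D3:**
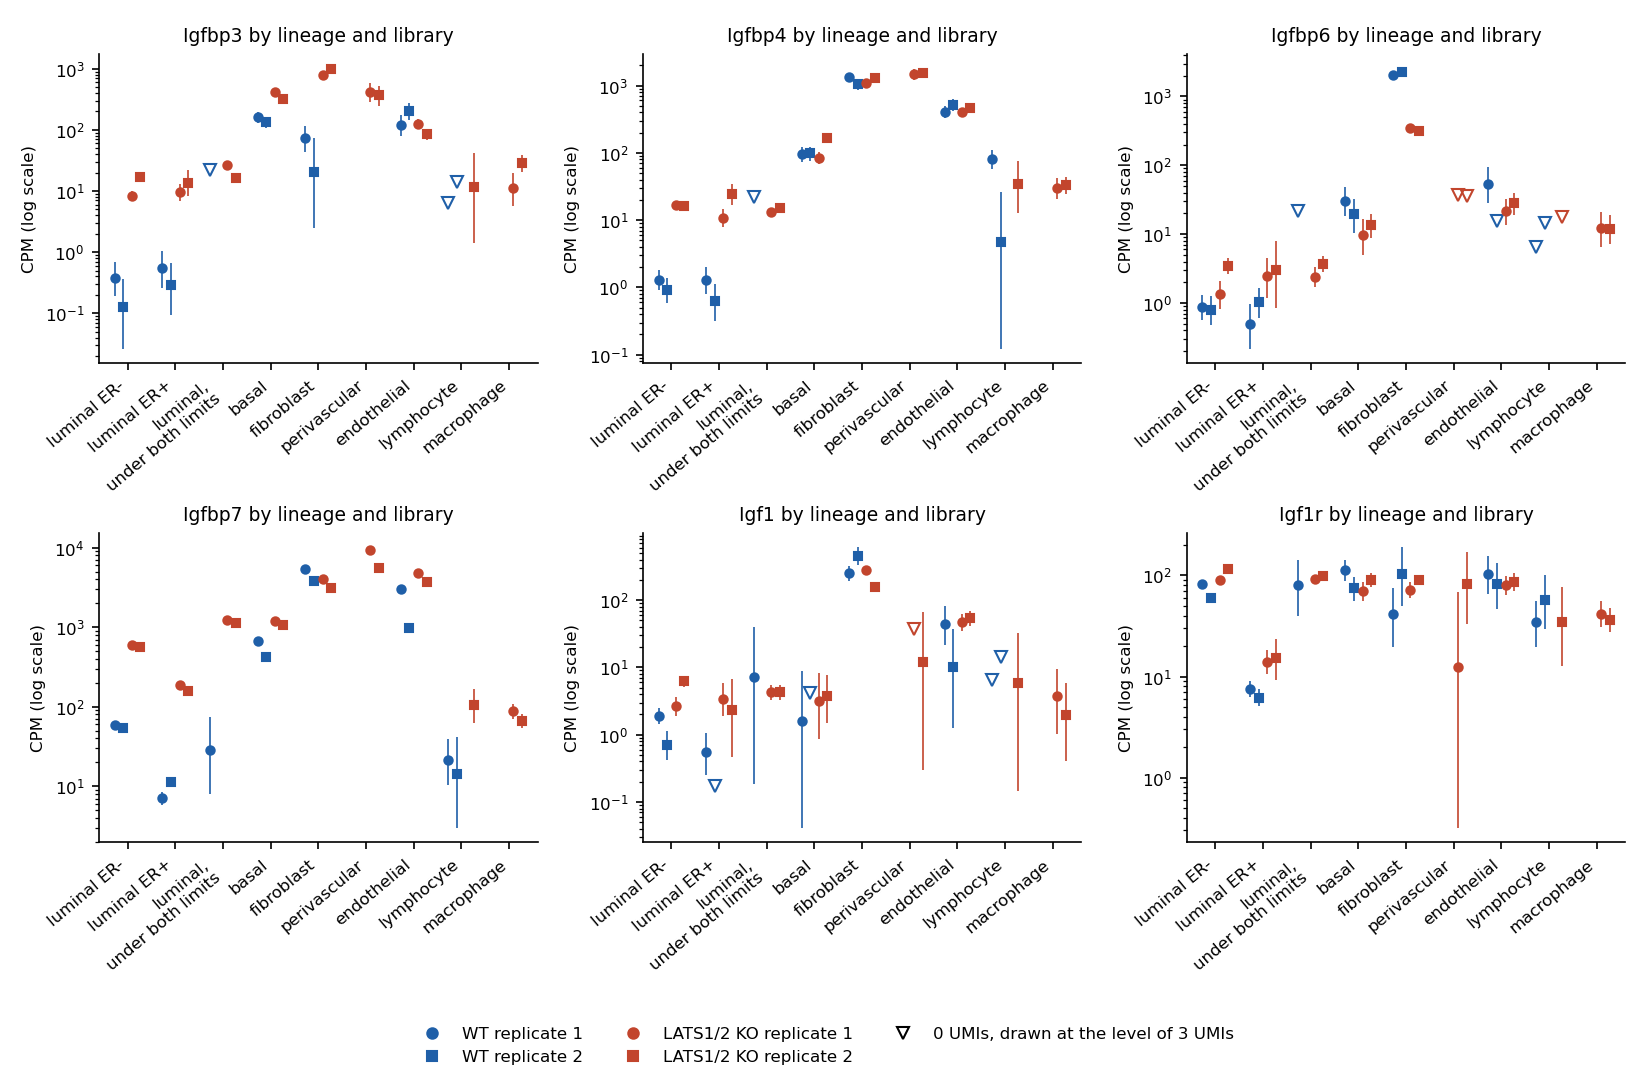
CPM (log scale) of Igfbp3, Igfbp4, Igfbp6, Igfbp7, Igf1 and Igf1r in each lineage of each library with at least 20 cells, with 95% counting intervals, and open triangles at the level of 3 UMIs where none was counted. Igfbp4, Igfbp6, Igfbp7 and Igf1 are highest in stromal lineages, Igfbp3 of LATS1/2 KO stands at 800 and 998 CPM in fibroblasts against 74.1 and 20.6 in WT, and Igf1r of WT stands at 7.49 and 6.20 CPM in luminal ER+ cells against 82.2 and 60.3 in luminal ER- cells.

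The lineages of WT glands differed in these genes without any knockout. Between luminal ER+ and ER- cells of the same WT mice, 8315 of 13605 genes (61.1%) passed in edgeR with the mouse as a block, and 4 of the 8 genes did, all lower in ER+ cells. *Igfbp5* was lower by a log2 fold change of -3.91 (SE 0.10, adjusted p = 2.0e-13 in edgeR) and *Igf1r* by -3.53 (SE 0.11, adjusted p = 1.4e-12 in edgeR). *Igfbp7* (-2.76) and *Igf1* (-2.48, on 9 UMIs in ER+ cells) also passed, but *Igf1* did not pass in DESeq2 (adjusted p = 0.0504) or in edgeR without the mouse as a block (adjusted p = 0.0509).

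Between basal and luminal ER- cells of WT, 4896 of 13605 genes (36.0%) passed, and 6 of the 8 genes did. *Igfbp3*, *Igfbp4*, *Igfbp6* and *Igfbp7* were higher in basal cells, with log2 fold changes of 8.92, 6.25, 4.66 and 3.05, and each had an adjusted p of 2.7e-06 or less in edgeR. *Igfbp2* was among them on 5 UMIs in basal cells, a level too low to read a difference from. It did not pass with lineages from clusters, where 5 of the 8 genes and 4732 of 13753 genes in all did. *Igfbp5* was lower by -1.17 (adjusted p = 8.3e-08 in edgeR). *Igf1r* did not pass (log2 fold change 0.18).

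In the stroma the WT libraries were small, with 58 and 23 fibroblasts and 41 and 34 endothelial cells, against 307 and 919 fibroblasts and 229 and 229 endothelial cells in LATS1/2 KO. Krt8-CreERT2 is directed at luminal cells and not at these. Among fibroblasts 417 of 8482 genes (4.92%) passed between LATS1/2 KO and WT in edgeR. Of the 8 genes 3 did, with the *Igfbp2* call read below as a description. *Igfbp3* had 74.1 and 20.6 CPM in WT and 800 and 998 CPM in LATS1/2 KO, a log2 fold change of 4.13 (SE 0.43, adjusted p = 0.00085 in edgeR). The LATS1/2 KO values were 149 and 160 times the free RNA level.

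*Igfbp6* fell in fibroblasts, from 2012 and 2261 CPM to 351 and 312 CPM, a log2 fold change of -2.57 (SE 0.26, adjusted p = 0.00077 in edgeR). *Igfbp2* passed as well, from 37.0 CPM (9 UMIs in 4 cells) and 0 to 366 and 148 CPM (log2 fold change 3.42, adjusted p = 0.018 in edgeR), at 3.54 and 2.33 times the free RNA level. Its call is read as a description, since with so few WT UMIs the gene entered the test only through LATS1/2 KO. *Krt14* moved with *Igfbp2*, from 0 UMIs to 123 and 75.4 CPM, and its part in the result was not tested. *Igfbp5* had 317 and 496 CPM in WT and 30.8 and 162 CPM in LATS1/2 KO and did not pass (log2 fold change -1.87, adjusted p = 0.12 in edgeR). *Igfbp4*, *Igfbp7*, *Igf1* and *Igf1r* overlapped between the groups, with log2 fold changes of 0.12, -0.25, -0.54 and 0.51. *Igf1* had 251 and 454 CPM in WT and 282 and 155 CPM in LATS1/2 KO.

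The *Igfbp3* and *Igfbp6* calls in fibroblasts needed WT replicate 1, and the *Igfbp2* call needed both WT libraries. Without WT replicate 1 the adjusted p was 0.072 for *Igfbp3* and 0.074 for *Igfbp6*, and 0 of the 8 genes and 3 genes in all passed, while their log2 fold changes were 5.72 and -2.49. Without WT replicate 2 both genes passed and *Igfbp2* did not. The log2 fold change of *Igfbp2* ran from 2.74 to 12.15 over the fits that left out 1 library, the highest without WT replicate 1, where the remaining WT library had 0 UMIs, so that its height is no bound.

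Among endothelial cells 565 of 6895 genes (8.19%) passed in edgeR, and *Igfbp5* and *Igfbp2* were among them. The call of *Igfbp2* is read as a description, since the gene entered the test only through LATS1/2 KO. *Igfbp2* had 0 UMIs in WT and 89.2 and 85.4 CPM in LATS1/2 KO, at least 12.2-fold higher with the WT group set to 3 counts, but at the free RNA level given above. *Krt14*, which endothelial cells do not make, moved with it, from 0 UMIs to 113 and 59.4 CPM. There were 0.787 and 1.44 *Igfbp2* UMIs per *Krt14* UMI in endothelial cells of LATS1/2 KO and 1.22 and 1.80 in macrophages. Luminal cells under both limits had 1.09 and 1.67, luminal ER+ cells 1.43 and 1.82, and luminal ER- cells 0.576 and 0.926. Lymphocytes had 1.86 and 1.5, fibroblasts 2.98 and 1.97, basal cells 0.064 and 0.038, and perivascular cells 1.1 and 6. The perivascular ratios rest on 10 and 2 *Krt14* UMIs. These ratios are a description, and the source of the endothelial *Igfbp2* was not tested. *Igfbp5* fell from 413 and 189 CPM to 45.5 and 139 CPM (log2 fold change -1.65, adjusted p = 0.026 in edgeR), and did not pass with a stricter gate (log2 fold change -0.36, adjusted p = 0.77 in edgeR) or without the low-count filter (adjusted p = 0.053). Free RNA was estimated at 7.57% and 1.82% of endothelial UMIs in WT and at 7.96% and 5.55% in LATS1/2 KO. Luminal *Igfbp5* was higher in WT, and the part of free RNA in the endothelial fall was not tested. *Igfbp7*, a vessel-associated gene, had 2999 and 966 CPM in WT and 4783 and 3728 CPM in LATS1/2 KO and did not pass (log2 fold change 1.15, adjusted p = 0.0775 in edgeR), but passed with the stricter gate (1.31, adjusted p = 0.020).

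**Figure D4:**
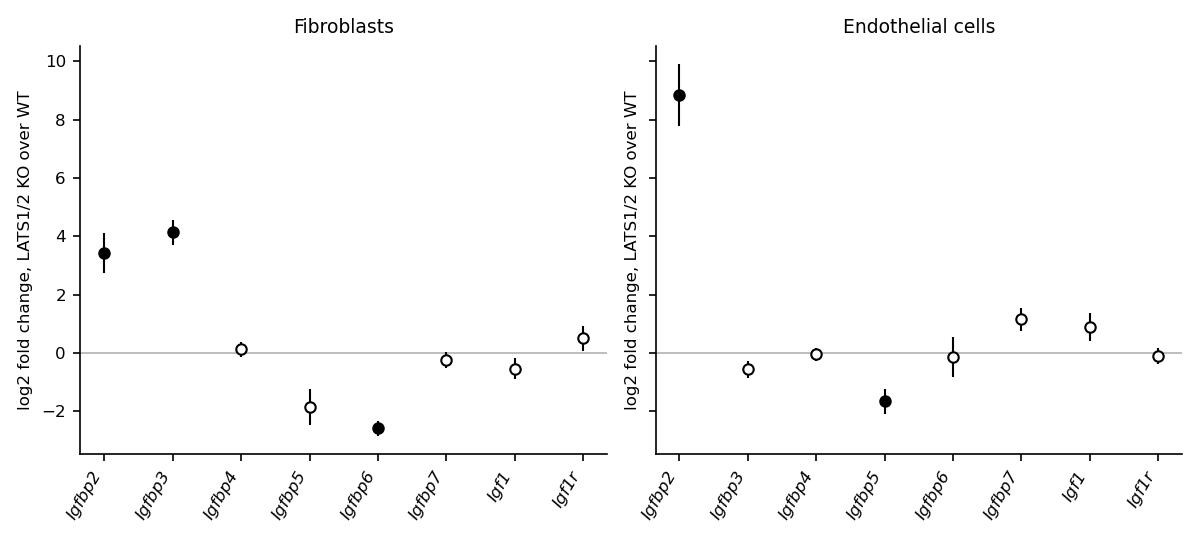
Log2 fold change of the 8 genes between LATS1/2 KO and WT in fibroblasts and in endothelial cells, with SE, filled where the adjusted p in edgeR was under 0.05. Igfbp3 is at 4.13 and Igfbp6 at -2.57 in fibroblasts, and the Igfbp2 point of endothelial cells rests on 0 UMIs in WT, so that its height is set by the fit and is no bound.

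The fibroblasts of LATS1/2 KO were also split by markers of a myofibroblast type (183 and 218 cells) and of an inflammatory type (57 and 375 cells), as a description with no test. *Igfbp4* had 743 and 475 CPM in the first and 2479 and 1861 CPM in the second. *Igfbp6* had 212 and 225 CPM in the first and 834 and 408 CPM in the second, and *Igf1* had 325 and 211 CPM against 216 and 107 CPM. *Igfbp2* had 474 and 271 CPM in the first and 114 and 89.6 CPM in the second. *Igfbp3* showed no common order, with 883 and 591 CPM against 555 and 1200 CPM. In WT the inflammatory type held 35 and 10 cells. They had 128 and 0 CPM of *Igfbp3*, 1958 and 2206 CPM of *Igfbp6* and 0 UMIs of *Igfbp2*. WT had 2 and 0 cells of the myofibroblast type, so the makeup of the fibroblasts differed between the groups and its part in the fibroblast calls was not tested.

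Other genes of the IGF pathway were taken from a list of 36, which covers ligand and receptors, proteases and their inhibitors, RNA-binding proteins and the signalling chain. In luminal ER- cells 7287 of 13395 genes (54.4%) passed between LATS1/2 KO and WT in edgeR, and 14 of the 31 tested list genes did, 8 higher and 6 lower. The median log2 fold change of the list was 0.10, against 0.01 over all genes. The serine protease gene *Htra1* (log2 fold change 5.22, adjusted p = 2.5e-05), *Pappa* (4.38, adjusted p = 0.00047), which encodes the protease that cleaves Igfbp4, and the serine protease gene *Htra3* (3.55, adjusted p = 0.00024) rose most. *Stc1*, an inhibitor of that protease (-2.96, adjusted p = 7.1e-05), *Igfals*, the acid-labile subunit of the circulating IGF complex (-2.09, adjusted p = 7.7e-05), and the PI3-kinase subunit gene *Pik3r1* (-0.74, adjusted p = 0.0020) fell most. Free RNA levels were not computed for the list genes in any lineage, so the part of free RNA in these differences was not tested. LATS1/2 KO held 1226 fibroblasts against 81 in WT, and *Pappa* was also higher in fibroblasts of LATS1/2 KO, as given below.

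In luminal ER+ cells 3343 of 12238 genes (27.3%) passed, and 13 of the 30 tested list genes did, 7 higher and 6 lower. *Htra3* (2.30), the receptor adaptor *Grb10* (2.05) and *Stc2* (1.25) rose most, and *Igfals* (-3.78), *Igf2bp3*, an mRNA-binding protein (-2.50), and *Irs1*, an insulin receptor substrate (-1.09), fell most. In basal cells 2598 of 8388 genes (31.0%) passed, and 4 of the 21 tested list genes did. *Pappa* (log2 fold change 2.93, adjusted p = 6.1e-07 in edgeR) and *Akt1* (1.07) rose, and *Pik3r1* (-2.45, adjusted p = 9.4e-08 in edgeR) and *Irs1* (-1.88) fell. The list's median was 0.00 in luminal ER+ and -0.10 in basal cells, against -0.01 and 0.00 over all genes.

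**Figure D5:**
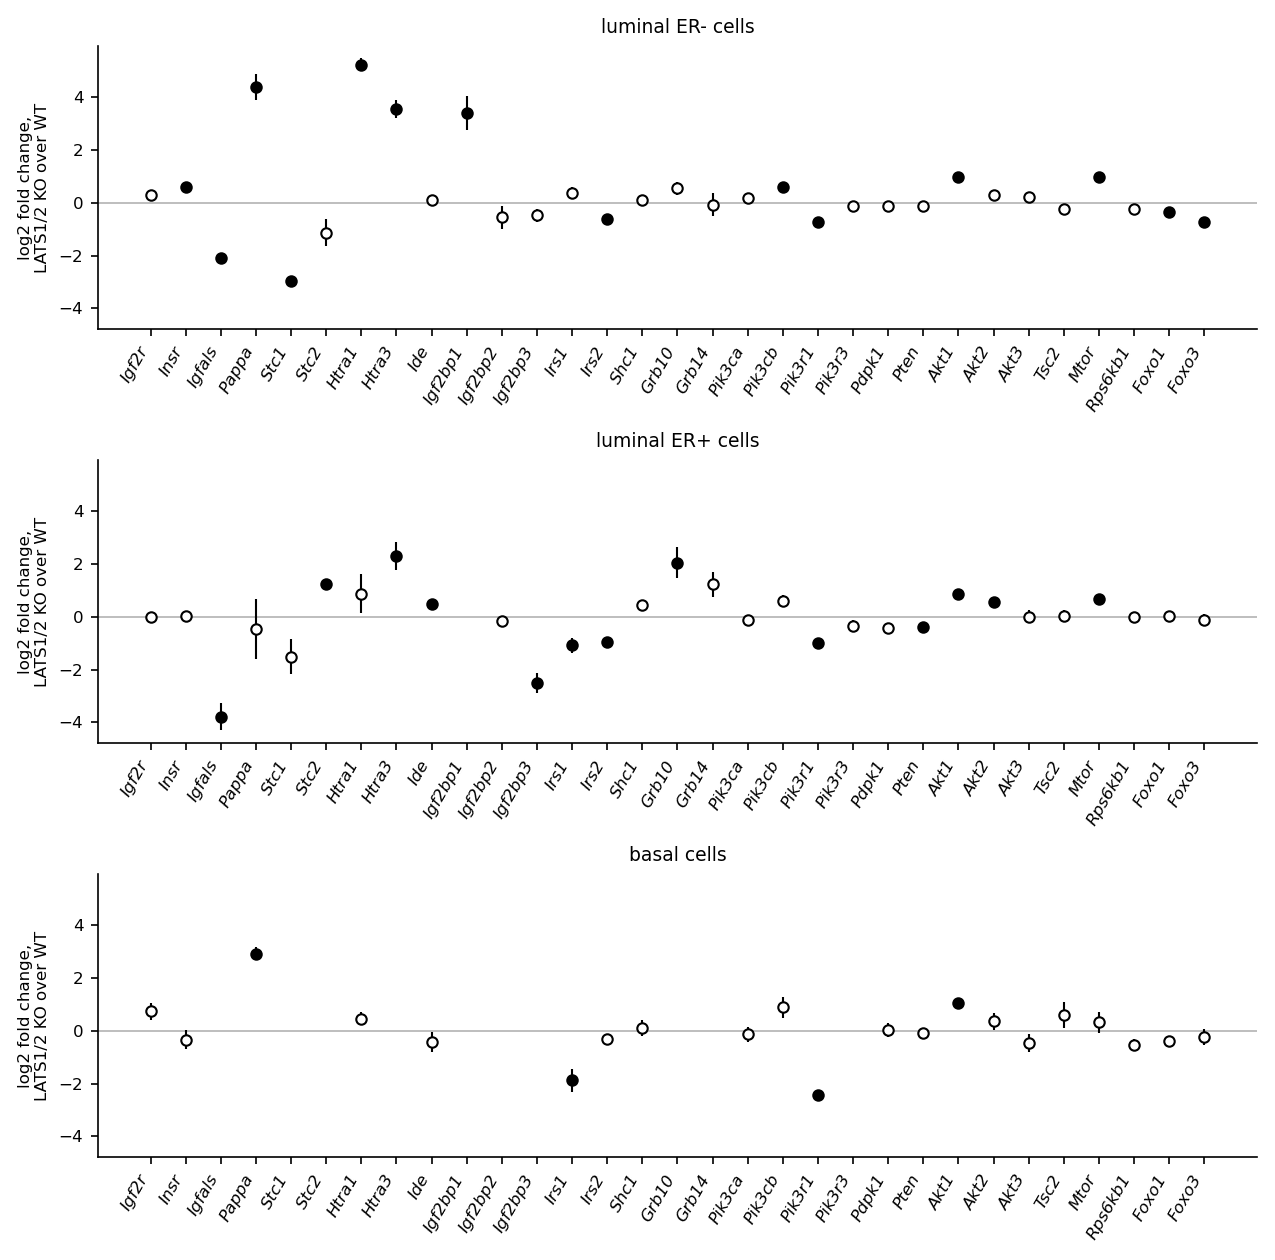
Log2 fold change of the listed IGF pathway genes between LATS1/2 KO and WT in luminal ER-, luminal ER+ and basal cells, with SE, filled where the adjusted p in edgeR was under 0.05. The protease genes Pappa, Htra1 and Htra3 are at 4.38, 5.22 and 3.55 in luminal ER- cells, and Pik3r1 lies under 0 in all of these lineages. Free RNA levels were not computed for these genes.

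Between EYFP-positive and EYFP-negative luminal cells 20 of the 32 tested list genes passed, 7 higher and 13 lower, beside the 41.8% of all genes given above. *Htra1* (1.67), *Igf2bp1* (1.29) and *Igf2bp2* (0.87) rose most, and *Stc2* (-1.47), *Stc1* (-1.15) and *Igfals* (-1.001) fell most. *Pappa* was lower in EYFP-positive cells (-0.96, adjusted p = 2.6e-05 in edgeR). In fibroblasts 3 of 25 tested list genes passed, *Pappa* at 4.15, *Htra1* at -1.43 and *Pik3r1* at -1.36. In endothelial cells 3 of 22 passed, the receptor gene *Insr* at 1.58, *Igf2* at -2.79 and *Htra1* at -1.99.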

How the data were processed

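The authors aligned the reads with Cell Ranger (version 3.1.0 per the submitters' processing notes, 6.1.2 per the file headers) to mm10 and deposited raw UMI counts per gene and cell. Cells with at least 500 genes and under 20% mitochondrial UMIs were kept, and no doublet caller was run. Each cell went to the lineage of its highest marker score, scaled to cells with at least 5 detected markers of that list. The best score had to reach 0.4 with 3 detected markers and lead the next by 0.1, and luminal cells were called ER- or ER+ from a score of 0.5. These limits were set on the pooled cells. The members, the lists and the rule for named genes (the 8 genes and, of the pathway list, up to 3 called genes in each direction) were chosen with earlier results of these data known.

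Counts were summed per library and lineage, with 20 cells per library as the minimum for a test, which left perivascular cells, lymphocytes and macrophages untested. After filterByExpr and TMM scaling, edgeR 4.0.16 tested the sums by quasi-likelihood, and p-values were adjusted over all genes tested (Benjamini-Hochberg). DESeq2 1.42.0, RLE size factors, no count filter, clusters in place of the gate, a stricter gate, 10% mitochondrial UMIs, thinning and leaving out libraries were tried as alternatives. Each test script was tested on simulated data. Free RNA shares came from collagen genes in luminal cells and from luminal genes elsewhere. Intervals cover counting error only. With 2 mice per group, p-values rest on the spread of few libraries and on estimates of spread that edgeR pools over genes. This holds most for the EYFP comparison, which also fits the mouse as a block. Its very small p-values do not measure the spread between mice. In these sums, fewer cells of a type and less RNA per cell cannot be told apart. Library sizes ranged from 38792520 to 46810771 UMIs.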

Additional observations from a re-analysis of the deposited data

Results flagged for a closer look

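*Igfbp6* moved in opposite directions in different lineages, with no overlap between the LATS1/2 KO and WT libraries in any of them. The log2 ratio of LATS1/2 KO to WT was 1.52 in luminal ER- cells and 1.85 in luminal ER+ cells, and -1.11 in basal cells and -2.69 in fibroblasts. The difference between lineages was not tested. The luminal values of LATS1/2 KO lay at 0.745 to 1.21 times the free RNA level, and the log2 ratio was -2.21 and -0.12 when free RNA was subtracted.

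The 649 LATS1/2 KO cells and 108 WT cells that no marker list claimed were used in no comparison between marker-gated lineages; the alternative with lineages from clusters included them. *Igfbp2* stood at 162.2 and 184.8 CPM in those of LATS1/2 KO and had 0 UMIs in those of WT. *Igfbp7* stood at 1425 and 623.2 CPM in those of LATS1/2 KO, against 247 and 266 CPM in those of WT.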

How the results depend on the processing

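Of 159 repeats of the counts of calls and the main epithelial values, 141 kept their direction and size, 17 moved and 1 reversed. The reversal was basal *Igfbp2*, whose log2 ratio of LATS1/2 KO to WT was -0.55 with free RNA subtracted. The members called between EYFP-positive and EYFP-negative cells numbered 3 without the mouse as a block, beside 1018 of 13192 genes in all. With lineages from clusters they also numbered 3, beside 5082 of 13092 genes in all. The pathway genes called there numbered 10 in DESeq2, 3 without the block, 10 in luminal ER- cells only, 13 in cells with 0 cycling UMIs, 9 after thinning and 8 in luminal cells under both limits only, the last chosen after seeing the data, as was the stricter gate. Over all genes that comparison gave 2133 calls in DESeq2, 3284 in luminal ER- cells, 4039 in cells with 0 cycling UMIs, 1688 after thinning and 1466 in luminal cells under both limits. Without a low-count filter 1 member, *Igfbp2*, was called in endothelial cells, beside 420 of 15033 genes in all. In fibroblasts 825 of 16724 genes were then called. DESeq2 called 245 genes in endothelial cells, 2144 in luminal ER+ and 1163 in basal cells.

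Leaving out 1 library gave 0 to 4 members and 0 to 5 pathway genes in fibroblasts, 1 to 5 members in endothelial cells and 5 to 12 pathway genes in luminal ER+ cells, and 3 to 646 genes in all in fibroblasts and 978 to 3112 in luminal ER+ cells. The genes tested in these fits ran from 4628 to 10369 in fibroblasts, 4370 to 8896 in endothelial cells and 11446 to 13245 in luminal ER+ cells. Each fit left 1 library in 1 group, so the counts of calls cannot be compared between fits. For the same reason the counts of members and pathway genes were not weighed against the calls over all genes, in endothelial cells or elsewhere. In fibroblasts the log2 fold change over these fits ran from -0.021 to 0.48 for *Igfbp4*, from -0.46 to 0.20 for *Igfbp7* and from -0.055 to 1.13 for *Igf1r*. In endothelial cells it ran from -0.20 to 0.12 for *Igfbp4*, from -1.08 to 7.31 for *Igfbp6* and from -0.27 to 0.094 for *Igf1r*.

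LATS1/2 KO and WT replicates share only a number. The difference between replicates 1 and 2 of WT was correlated with that of LATS1/2 KO, over genes above 50 CPM in every library. By lineage, these correlations ran from -0.17 to 0.08. With the replicate number as a block 855 genes were called in fibroblasts (4 members, *Igfbp5* added) and 844 in endothelial cells (3 members, *Igfbp7* added). Signs also turned for values that missed the threshold or lay at the free RNA level. In endothelial cells *Igfbp4* had 0.062 without the filter and 0.050 under 10% mitochondrial UMIs, and *Igf1r* 0.0024 without the filter and 0.047 with clusters. Between EYFP classes *Igfbp3* had 0.23 in luminal ER- cells, *Igf1* -0.27 with clusters and *Igf1r* 0.024 with 0 cycling UMIs. *Igfbp4* had 0.11 between WT luminal ER+ and ER- cells with clusters. *Igfbp6* had -0.14 in all luminal, -2.21 in ER- and -0.12 in ER+ cells with free RNA subtracted, and -0.997 in ER+ cells after thinning. The cause of these changes was not tested. WT had 23 to 58 fibroblasts and 34 to 41 endothelial cells per library, which limits the stromal comparisons.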
